A study of Mus musculus with 18 samples.

Results

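The genes Nog, Colec10, Fut2, Shisa6, Pacsin1, Ptp4a1 and AI593442 stood higher in hearts given lamin A than in both other groups of the same batch. They were picked by name as genes higher in the lamin A hearts than in both the control and the L881 hearts of batch LA, so their differences within batch LA chose them and are given as a description, without a test. The 7 genes are 7 of 54532 in the count table and fill 8 of its rows, because Ptp4a1 stands there under 2 gene IDs, of which only 1 met the rule. Contrasts within batch LC, where lamin C was given instead, did not enter the rule and were tested, although the genes were chosen with earlier results of these data known. Colec10 is described in batch LC by its counts, without a test.

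The data are RNA sequencing of poly(A) RNA from mouse heart apex, in 18 libraries, 3 in each of 6 groups. The study asked how rAAV9 vectors, made from an adeno-associated virus, that raise lamin A or lamin C act in hearts made cardiomyopathic by knockdown of Lmna, the gene that encodes both lamins. Batch LC held the groups Control, Lmna shRNA (named L881) and Lmna shRNA+Lamin C (L881+LC). Batch LA held the groups Control, Lmna shRNA (L881) and Lmna shRNA+Lamin A (L881+LA). Every animal was labelled WT in genotype, so no group carried a germline allele. The sources used here do not give age, sex, vector dose, the promoter that drives each vector or what the control animals received. No batch held both lamins, so lamin type and batch cannot be told apart beyond what each batch's own control and L881 hearts allow. In the submitters' sample names, the third controls of the batches are numbered next to each other and apart from the other libraries of their batches. What these numbers mean is not given, and fits without the third controls are among the alternatives below. Nothing in the labels says whether animals of a group shared a litter or a cage, so the p-values measure only the spread between these libraries.

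A-type lamins are splice forms of 1 gene that line the inner nuclear membrane, and loss of their function is a known cause of dilated cardiomyopathy with conduction disease. The 7 genes share no known pathway. Nog encodes noggin, a secreted protein that binds bone morphogenetic proteins (BMPs) and keeps them from their receptors, and Colec10 encodes a secreted collectin that recognises sugars and can start the lectin pathway of complement. Fut2 encodes a Golgi fucosyltransferase that makes the H antigen on secreted and surface glycans. Shisa6 encodes a membrane protein that holds AMPA receptors at synapses, and Pacsin1 an F-BAR protein of neurons that bends membranes and binds dynamin. Ptp4a1 encodes a prenylated phosphatase of the PRL family, which binds the CNNM magnesium transporters. AI593442 is a protein-coding gene that carries a provisional symbol.

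Promoters of 3 of the 7 genes were found in RefSeq's table for GRCm38.p6, and they are shown because the results turn on these genes. AI593442 stood far above the L881 hearts with lamin A, and Pacsin1 lay above the controls with either lamin. Ptp4a1 lay on opposite sides of its own batch's L881 hearts with the 2 lamins. Each run holds the 250 bases before the RefSeq start, 5′ to 3′ on the gene's strand, and capitals mark matches to the searched motifs on either strand. The Ptp4a1 run is chr1:30949756-30950005 (minus strand), that of AI593442 is chr9:52679438-52679687 (minus strand) and that of Pacsin1 is chr17:27684989-27685238 (plus strand).
Ptp4a1: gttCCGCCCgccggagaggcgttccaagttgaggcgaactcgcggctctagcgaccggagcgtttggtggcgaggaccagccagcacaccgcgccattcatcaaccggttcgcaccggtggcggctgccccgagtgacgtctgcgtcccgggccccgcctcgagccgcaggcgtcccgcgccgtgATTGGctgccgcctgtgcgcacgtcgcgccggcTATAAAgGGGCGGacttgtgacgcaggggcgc
AI593442: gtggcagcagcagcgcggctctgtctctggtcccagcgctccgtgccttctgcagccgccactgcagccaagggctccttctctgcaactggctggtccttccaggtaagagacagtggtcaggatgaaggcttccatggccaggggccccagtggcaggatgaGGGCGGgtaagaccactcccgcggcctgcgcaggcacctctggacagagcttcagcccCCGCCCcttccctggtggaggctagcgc
Pacsin1: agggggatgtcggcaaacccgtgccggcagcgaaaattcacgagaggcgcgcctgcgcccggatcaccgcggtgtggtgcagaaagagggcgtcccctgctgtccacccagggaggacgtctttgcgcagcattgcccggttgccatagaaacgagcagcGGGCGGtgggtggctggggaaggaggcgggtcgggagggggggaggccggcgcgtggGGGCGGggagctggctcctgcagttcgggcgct

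Each motif was searched on both strands, and no matches overlapped in these 3 runs. GGGCGG occurred in all 3 promoters, 2 times in each, and in 32.7% of the 32851 promoters of the table. TATAAA occurred in the Ptp4a1 promoter alone of the 3, from 32 to 27 bases before the start, and in 12.4% of all promoters. CCAAT occurred on the opposite strand of the Ptp4a1 promoter, from 65 to 61 bases before the start, and in 33.8% of all promoters. CACGTG (6.02% of all promoters) and TGANTCA (6.75%) occurred in none of the 3 runs. These matches are descriptions of letters in this window. The RefSeq starts of AI593442 and Pacsin1 lie inside the spans that the count table gives those genes, and which start was used in these hearts was not tested.

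Counts per library ran from 31418657 to 41259968, and 3 counts correspond to 0.0955 and 0.0727 CPM of those totals, where CPM is the count scaled to a common library size. All other CPM values rest on TMM-scaled library totals. Of the 54532 genes, 17876 had enough counts to be tested. The target of the shRNA, Lmna, showed no lower level under the shRNA label. It stood at 119.8 to 128.5 CPM in control hearts of batch LC and at 114.8 to 136.8 in the L881 hearts of that batch. In batch LA the controls held 111.7 to 120.0 CPM and the L881 hearts 121.7 to 130.3. Lmna reached 1064 to 1375 CPM with lamin C and 501.5 to 555.5 CPM with lamin A. The hearts are therefore called by their labels throughout. Mitochondrially encoded genes took 25.2% to 27.0% of the counts in the controls of both batches, 13.0% to 15.6% in the L881 hearts, 23.2% to 24.8% with lamin C and 20.3% to 22.6% with lamin A. The 8 markers of cardiomyocytes summed to 47413 to 50258 CPM with lamin A and 63218 to 65268 CPM with lamin C, against 73875 to 79669 in the controls and 31132 to 36222 in the L881 hearts. The 10 markers of macrophages summed to 728.3 to 806.0 CPM with lamin A, 414.6 to 493.4 with lamin C, 261.4 to 293.0 in the controls and 972.2 to 1084 in the L881 hearts. In RNA of whole tissue, fewer cells of a type and less RNA per cell cannot be told apart, and the part of these shifts in the results below was not tested.

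All 8 rows passed the filter on low counts, but Colec10 passed only through batch LA, with all 3 lamin A libraries and 1 L881 library at the needed level. The rows held low counts. For Ptp4a1 neither the counts nor the level per unit of length need show the level of the gene. Its 2 IDs share exons, and how reads there were counted is not given. With lamin A, where the genes were chosen to be high, AI593442 stood highest per unit of length, at 1.81 ± 0.201 FPKM (fragments per kilobase of exon relative to library size, SD, n = 3). Noggin followed at 0.902 ± 0.00915 FPKM, Pacsin1 at 0.846 ± 0.0872, Fut2 at 0.585 ± 0.0356 and the Ptp4a1 row that met the rule at 0.574 ± 0.103. Shisa6 stood at 0.353 ± 0.0920 FPKM and Colec10 at 0.155 ± 0.0549.

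**Figure D1:**
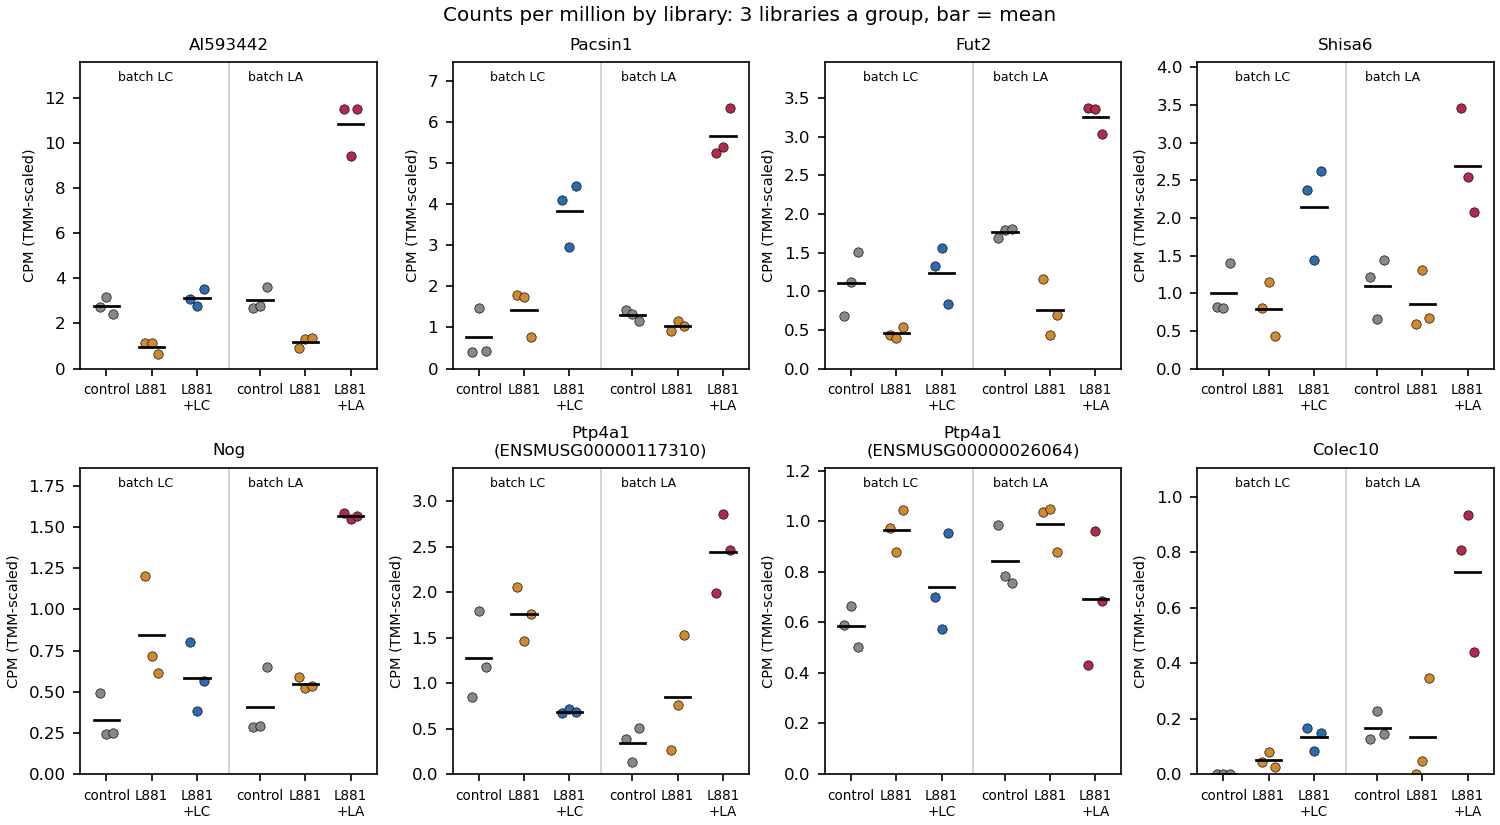
CPM (TMM-scaled, linear axis from 0) of the 7 genes, with both Ptp4a1 IDs, in every library; points are libraries, bars are means of 3, and the grey line separates the batches. The 3 lamin A libraries lie above the other 6 of batch LA in 7 of the 8 panels, while the lamin C libraries lie above the other 6 of batch LC for Pacsin1 and Shisa6, and for Colec10 by scaling alone, from 3 counts in the lowest of them and 3 in an L881 library.

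The rows other than Colec10 are counted here. The lamin C hearts moved several genes in the same direction as the lamin A hearts but passed the level of the controls for 1 gene at the test's threshold. Against the L881 hearts of batch LC, 4 rows rose with lamin C (AI593442, Pacsin1, Fut2 and Shisa6) and 1 fell (Ptp4a1), where 25.7% of all tested genes rose and 28.4% fell. Against the controls of batch LC, 1 row was higher with lamin C (Pacsin1), where 8.87% of tested genes were higher, and none was lower, where 6.18% were. The shares over all genes depend on the scaling: with library totals in place of TMM, 13.1% rose and 51.5% fell with lamin C against L881, and 16.1% were higher and 1.64% lower than in the controls. DESeq2 called Pacsin1 and Shisa6 higher against the controls. So did edgeR with no filter on low counts, which also called 1 row lower, the Ptp4a1 row that met the rule. Pacsin1 was also the only row higher with lamin C than in both other groups by edgeR's test, a pattern of 39 genes or 0.218% of those tested. In batch LA the pattern that chose the genes was called for 195 genes, 1.09% of those tested.

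Counted by overlap instead, the 3 lamin C libraries lay above the 6 others of batch LC for Pacsin1 and Shisa6, where 1.19% of tested genes did so. Colec10 met this count on the TMM scale too, but lamin C replicate 2 and L881 replicate 2 held 3 counts each, and with library totals the order turned, to 0.0751 CPM and 0.0924 CPM. For the lamin A libraries in batch LA this held for 7 rows, which the choice of genes fixes, and for 2.96% of tested genes. Ranked by the smaller of the differences from control and from L881 among the 195 genes, Pacsin1 stood 2nd, Colec10 3rd, AI593442 7th, the Ptp4a1 row 8th, Nog 9th, Shisa6 11th and Fut2 28th. Fut2 lay nearest the edge of the rule, with its smaller difference at 0.89 on the log2 scale. The other Ptp4a1 ID lay outside it, at -0.50.

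**Figure D2:**
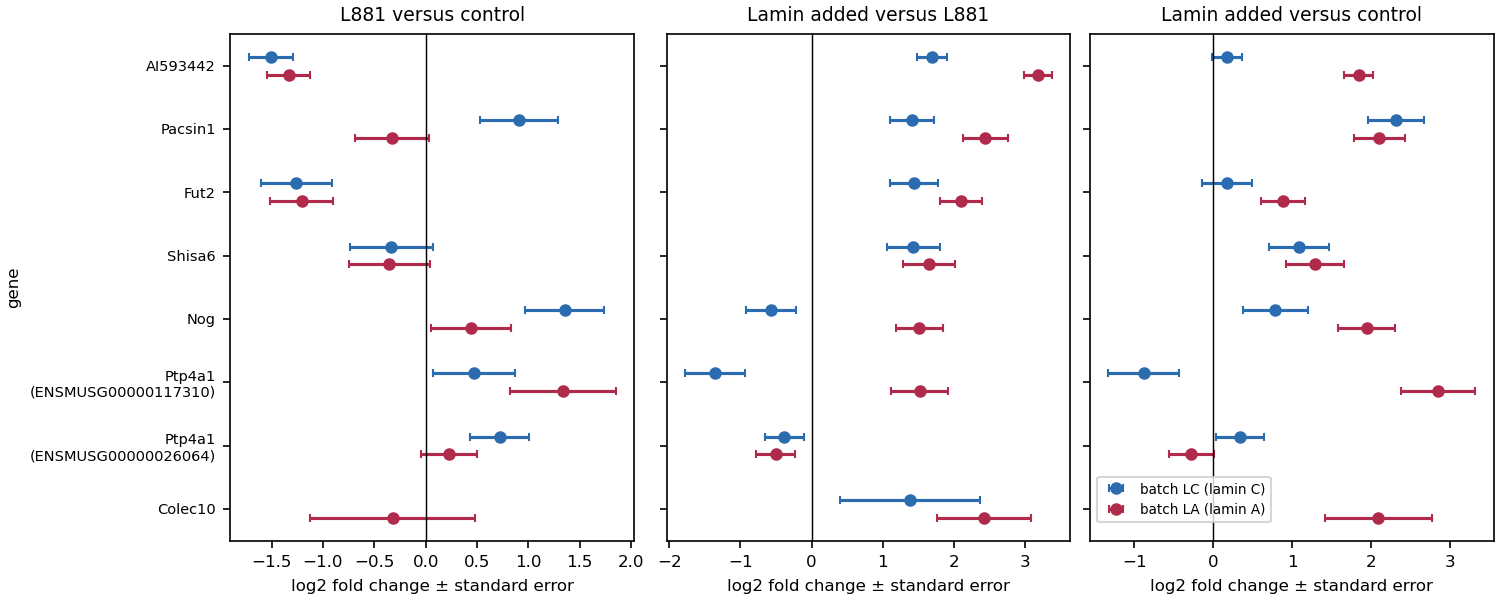
Log2 fold change ± standard error of each gene for L881 against control, lamin against L881 and lamin against control, with batch LC in blue and batch LA in red. Colec10 has no blue point where the control libraries held 0 counts; the widest gap between the batches is that of the Ptp4a1 ID ENSMUSG00000117310, which lies at -0.88 with lamin C and 2.85 with lamin A against control.

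Noggin, a secreted member, was highest with lamin A within batch LA. Nog (chr11:89300638-89302332, minus strand, mm10) stood at 1.59, 1.55 and 1.57 CPM in the 3 lamin A libraries, at 0.286, 0.294 and 0.649 CPM in the controls of batch LA and at 0.590, 0.524 and 0.533 in the L881 hearts. No lamin A library overlapped either group. Their level was higher by 1.95 ± 0.36 (log2 fold change ± SE) than the controls and by 1.51 ± 0.33 than the L881 hearts. In batch LC the order was different, because the L881 hearts were the highest group.

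Control hearts of batch LC held 0.490, 0.246 and 0.251 CPM of Nog, the L881 hearts 1.203, 0.720 and 0.611, and the lamin C hearts 0.799, 0.382 and 0.566. Nog rose in the L881 hearts by 1.36 ± 0.39 (edgeR quasi-likelihood test with Benjamini-Hochberg adjustment over all tested genes, adjusted p = 0.0049), with no overlap between the groups. The lamin C hearts lay between them and overlapped both. Their difference was -0.57 ± 0.35 from L881 (adjusted p = 0.18 by edgeR) and 0.79 ± 0.41 from control (adjusted p = 0.22 by edgeR). With library totals the difference of Nog from L881 was -0.87 and passed the threshold (adjusted p = 0.035 by edgeR, the lowest of a range up to 0.68 over the alternatives). Over all 6 groups the lamin A hearts stood alone at the top, and each other neighbour in the order of means overlapped the next.

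The other genes of the BMP pathway are given by role. Of 9 tested antagonists besides Nog, 6 rose and 0 fell in the L881 hearts of batch LC, where 33.3% of tested genes rose and 29.6% fell (58.3% and 13.5% with library totals). With lamin C, 7 fell and 0 rose against L881, where 28.4% of tested genes fell and 25.7% rose (51.5% and 13.1% with library totals). The list's median was -1.10 on the log2 scale beside -0.04 over all genes. With lamin A, 4 fell and 0 rose against L881, where 16.1% of tested genes rose and 13.7% fell (7.16% and 34.7% with library totals). Against the controls 5 were higher and 1 lower with lamin A, where 24.1% were higher and 22.1% lower (42.9% and 9.85% with library totals).

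Follistatin (Fst), which binds activins and BMPs, rose by 2.78 ± 0.23 in the L881 hearts of batch LC and fell by 2.56 with lamin C (SE 0.22). With lamin A it fell by 1.04 (SE 0.20). Follistatin-like Fstl1 rose by 2.90 ± 0.15 in the L881 hearts of batch LC, fell by 1.76 with lamin C and fell by 0.52 with lamin A. Bambi, a decoy receptor, rose by 1.203 ± 0.13 and fell by 1.10 with lamin C and by 0.94 with lamin A. Fstl3, an activin-binding relative of follistatin, rose by 2.73 ± 0.16 and fell by 1.51 with lamin C, while its difference with lamin A was -0.03 ± 0.13 (adjusted p = 0.90 by edgeR).

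Of 6 tested BMP ligands, 2 rose and 2 fell in the L881 hearts of batch LC (3 and 1 with library totals). In that comparison 33.3% of all tested genes rose and 29.6% fell (58.3% and 13.5% with library totals). With lamin A against L881, 16.1% rose and 13.7% fell (7.16% and 34.7% with library totals). Gdf6 rose by 4.69 ± 0.19, and Bmp7 fell by 1.29 (SE 0.29). With lamin A, 0 ligands rose and 2 fell against L881, Gdf6 by 0.74 and Bmp4 by 0.62. Of 12 receptors and SMADs, which carry the signal from the membrane to the nucleus, 4 rose and 1 fell in the L881 hearts of batch LC, and 1 rose and 1 fell with lamin A against L881 (9 and 0, and 0 and 7, with library totals). Of 9 target genes, 7 rose and 1 fell in the L881 hearts of batch LC. Id2, a repressor of basic helix-loop-helix factors that BMPs induce, rose by 1.87 ± 0.13, fell by 1.32 with lamin C and fell by 0.58 with lamin A. Against the controls, 6 of the 9 targets were higher and 0 lower with lamin A, where 24.1% and 22.1% of all tested genes were. With lamin C 3 were higher and 0 lower, where 8.87% and 6.18% of all tested genes were. The 10 markers of fibroblasts, cells that make several of these antagonists, summed to 2353 to 2847 CPM in the controls of both batches, 6624 to 7535 in the L881 hearts, 2948 to 3870 with lamin C and 5370 to 6368 with lamin A, and their part in these counts was not tested.

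Colec10 was near the limit of detection outside the lamin A hearts. Colec10 (chr15:54410774-54466358, plus strand) had 28, 35 and 18 counts in the lamin A libraries, 4, 7 and 4 in the controls of batch LA and 0, 2 and 15 in the L881 hearts of that batch. The lamin A hearts did not overlap either group, although the L881 library with 15 counts came close to the lowest of them. Their difference was 2.09 ± 0.67 from the controls and 2.42 ± 0.66 from the L881 hearts. With single libraries left out, the second difference ran from 1.85 without L881 replicate 1 to 4.74 without replicate 3, the L881 library of 15 counts. A processed pseudogene, Gm18152, overlaps Colec10 on the other strand, and the sources used here do not say whether reads were counted by strand.

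In batch LC the controls held 0 counts of Colec10 in all 3 libraries, the L881 hearts 2, 3 and 1 and the lamin C hearts 5, 3 and 5. Set against a floor of 3 counts over the 3 control libraries, the lamin C hearts, with 13 counts, stood 3.76-fold above it. The L881 hearts, with 6 counts, stood 1.39-fold above it. The floor allows for counting error in the controls only. The 13 and 6 counts are taken as they stand, so these folds are not lower limits. No test is given for Colec10 in this batch, since it passed the filter on low counts through batch LA and the controls were at 0. The controls of batch LA held 15 counts in all, as against 0 in batch LC.

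The closest relative, Colec11, whose product joins that of Colec10 in circulating complexes, had 660 to 995 counts in every library. It fell by 0.46 in the L881 hearts of batch LC (SE 0.07) and rose by 0.52 ± 0.07 with lamin C. With lamin A its difference from L881 was 0.09 ± 0.07 (adjusted p = 0.33 by edgeR), and -0.11 with library totals. Of 8 tested genes of the lectin pathway besides Colec10, 5 rose and 2 fell in the L881 hearts of batch LC, and 2 rose and 5 fell with lamin C against L881. With lamin A, 1 rose and 5 fell against L881. The shares of all tested genes that rose and fell were 33.3% and 29.6%, 25.7% and 28.4%, and 16.1% and 13.7% in these comparisons. With library totals they were 58.3% and 13.5%, 13.1% and 51.5%, and 7.16% and 34.7%. Complement C4b rose by 4.13 ± 0.28 in the L881 hearts of batch LC and fell by 2.28 with lamin C and by 0.91 with lamin A, and the protease Masp1 rose by 2.29 ± 0.20 and fell by 1.61 and by 1.03.

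Fut2 was low in the L881 hearts of both batches, lay above the controls with lamin A and overlapped the controls with lamin C. Fut2 (chr7:45648591-45666394, minus strand) stood at 3.38, 3.37 and 3.03 CPM in the lamin A libraries, at 1.69, 1.80 and 1.80 in the controls of batch LA and at 1.16, 0.429 and 0.696 in the L881 hearts. The 3 groups did not overlap. With lamin A the level was higher by 0.89 ± 0.28 than in the controls and by 2.09 ± 0.29 than in the L881 hearts, and the L881 hearts lay 1.21 below the controls.

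Controls of batch LC held 0.686, 1.12 and 1.503 CPM of Fut2, the L881 hearts 0.436, 0.400 and 0.535 and the lamin C hearts 1.33, 1.56 and 0.834. The lamin C hearts overlapped the controls, and both lay above the L881 hearts. Fut2 fell in the L881 hearts by 1.26 (SE 0.35, adjusted p = 0.0038 by edgeR) and rose with lamin C by 1.44 ± 0.34 (adjusted p = 0.0013 by edgeR). The difference between lamin C and control was 0.18 ± 0.32 (adjusted p = 0.77 by edgeR). On the log2(FPKM + 1) and log2(FPKM + 0.1) scales, limma did not call either change, and the adjusted p reached 0.093 for the fall and 0.052 for the rise, each the highest over the alternatives, with lows of 0.00024 and 1.0e-05. In the order of means the lamin A hearts and then the controls of batch LA stood clear of the groups below them, and the other 4 groups overlapped their neighbours.

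The near relative Fut1, which makes the same linkage, had 0 to 3 counts per library and was not tested. Of 14 tested genes of fucose transfer, supply and removal besides Fut2, 5 rose and 0 fell in the L881 hearts of batch LC, beside 33.3% and 29.6% of all tested genes. With lamin C 6 fell and 0 rose against L881, beside 28.4% and 25.7% of all tested genes. With lamin A 3 fell and 0 rose, beside 13.7% and 16.1%. With library totals the counts of this list were 13 higher and 0 lower in the L881 hearts, 12 lower and 0 higher with lamin C and 7 lower and 0 higher with lamin A. On that scaling 58.3% of all tested genes were higher in the first comparison, 51.5% lower in the second and 34.7% lower in the third. The lysosomal fucosidase Fuca1 rose by 0.98 ± 0.08 in the L881 hearts of batch LC and fell by 0.68 with lamin C and by 0.32 with lamin A. Gmds, which makes GDP-fucose from GDP-mannose, rose by 0.78 ± 0.14 and fell by 0.49 with lamin C, with a difference of -0.22 ± 0.13 with lamin A (adjusted p = 0.23 by edgeR).

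Shisa6 lay above the controls with either lamin, at similar levels. Shisa6 (chr11:66211725-66525964, minus strand) stood at 3.46, 2.54 and 2.08 CPM in the lamin A libraries, at 1.21, 0.653 and 1.44 in the controls of batch LA and at 0.590, 1.31 and 0.672 in the L881 hearts. The lamin A libraries did not overlap the other 6, which overlapped each other. The difference was 1.29 ± 0.36 from the controls and 1.65 ± 0.36 from the L881 hearts. Gm12296, a processed transcript, overlaps Shisa6 on the other strand.

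The lamin C libraries held 2.36, 1.45 and 2.62 CPM of Shisa6, the controls of batch LC 0.817, 0.807 and 1.40 and the L881 hearts 0.809, 1.15 and 0.433. All 3 lamin C libraries lay above the other 6, by a narrow margin over the highest control. Shisa6 rose with lamin C by 1.42 ± 0.37 against L881 (adjusted p = 0.0032 by edgeR), a call lost with limma on log2(FPKM + 0.1) (adjusted p = 0.074, the highest of a range from 6.0e-07 over the alternatives). Against control the difference was 1.09 ± 0.38 and missed the threshold (adjusted p = 0.059 by edgeR). It passed with DESeq2, with no filter, with scaling by library totals, without control replicate 3 (1.39) and without lamin C replicate 2 (1.31). It also passed without the third control of each batch (1.39), and the adjusted p by the tests used ranged from 0.00097 to 0.26 over the alternatives. The L881 hearts did not differ detectably from the controls (-0.34 ± 0.41, adjusted p = 0.49 by edgeR), and with scaling by library totals that difference was 0.085. The lamin C and lamin A hearts overlapped each other and stood above the other 4 groups.

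Relatives of Shisa6 were counted by the same test. Of 5 tested SHISA genes besides Shisa6, 4 rose and 0 fell in the L881 hearts of batch LC, 4 fell and 0 rose with lamin C and 3 fell and 0 rose with lamin A against L881. Over all tested genes the shares that rose and fell were 33.3% and 29.6%, 25.7% and 28.4%, and 16.1% and 13.7% in that order. With library totals they were 58.3% and 13.5%, 13.1% and 51.5%, and 7.16% and 34.7%. Shisa3, which holds Wnt and FGF receptors in the endoplasmic reticulum, had mean levels in batch LC of 1.63 CPM in control hearts, 27.4 in the L881 hearts and 3.01 with lamin C, and it fell by 3.19 with lamin C (SE 0.19). In batch LA its means were 1.65, 25.5 and 5.38 CPM in the same order, a fall of 2.24 with lamin A (SE 0.17). Shisa4 rose by 2.46 ± 0.13 in the L881 hearts of batch LC and fell by 1.15 with lamin C and by 0.70 with lamin A. Shisa2 had 12 to 44 counts and passed the threshold in none of these comparisons by edgeR's adjusted p, and 5 further relatives, with at most 9 counts in a library, were not tested.

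Of 7 tested AMPA receptor subunits and auxiliary proteins, the partners of Shisa6 in neurons, 6 rose and 0 fell in the L881 hearts of batch LC and 5 fell and 0 rose with lamin C. With lamin A 2 fell and 0 rose against L881. Among all tested genes 33.3% rose and 29.6% fell in the first comparison, 25.7% and 28.4% in the second and 16.1% and 13.7% in the third. With library totals these shares were 58.3% and 13.5%, 13.1% and 51.5%, and 7.16% and 34.7%. The subunit gene Gria3 rose by 2.79 ± 0.21 and fell by 1.75 with lamin C and by 0.96 with lamin A. Since Shisa6 and Pacsin1 are best known from neurons, the markers of neurons bear mention. The 14 neuronal markers summed to 10.9 to 14.3 CPM over all libraries, with 12.6 to 13.4 with lamin A, 12.7 to 13.98 in the controls of batch LA and 11.9 to 12.5 in the L881 hearts of that batch. In batch LC they summed to 13.8 to 14.3 CPM with lamin C, 11.6 to 12.7 in the controls and 10.9 to 13.6 in the L881 hearts. By narrow margins, the lamin C libraries lay above the other 6 of their batch and the lamin A libraries above the L881 hearts, while the latter overlapped the controls. Single markers went both ways. Of 8 tested, 2 rose and 3 fell with lamin C against L881, and 0 were higher and 0 lower than in the controls. With lamin A, 1 rose and 2 fell against L881, and 2 were higher and 1 lower than in the controls. The part of neuronal cells in the results for Shisa6 and Pacsin1 was not tested. Between 2 and 5 of the 14 were at 0 counts in all libraries of a group.

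**Figure D3:**
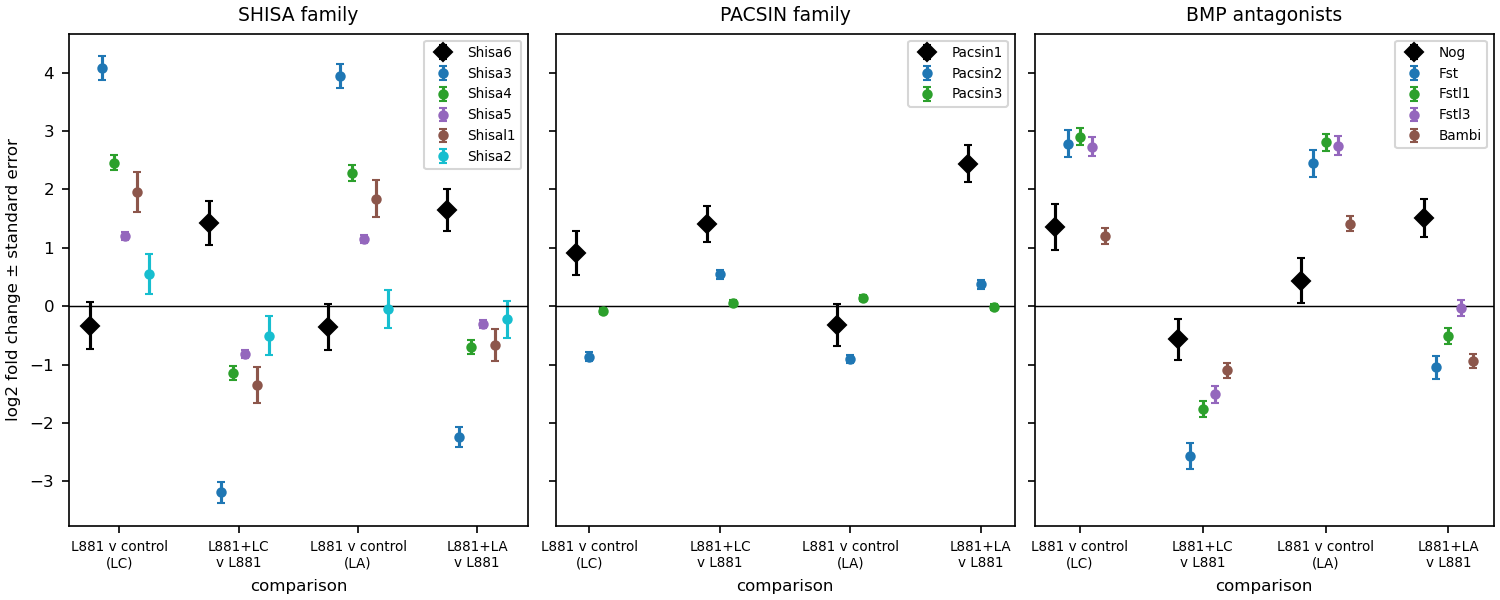
Log2 fold change ± standard error (linear axis) of Shisa6, Pacsin1 and Nog, as black diamonds, beside tested relatives, as coloured points, for L881 against control and lamin against L881 in each batch. Against L881, Shisa6 and Pacsin1 lie above 0 with either lamin and Nog with lamin A only, while Shisa3 lies at -3.19 with lamin C and -2.24 with lamin A and Fst at -2.56 and -1.04.

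Pacsin1 lay above the controls with either lamin. Pacsin1 (chr17:27655509-27711482, plus strand) stood at 5.25, 5.40 and 6.33 CPM in the lamin A libraries, at 1.43, 1.34 and 1.15 in the controls of batch LA and at 0.920, 1.17 and 1.04 in the L881 hearts. The lamin A libraries lay far above the other 6, and the L881 libraries overlapped the controls. The lamin A hearts were higher by 2.11 ± 0.32 than the controls and by 2.44 ± 0.32 than the L881 hearts.

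In batch LC the lamin C libraries held 4.10, 2.95 and 4.44 CPM of Pacsin1, against 0.392, 1.47 and 0.430 in the controls and 1.78, 1.73 and 0.764 in the L881 hearts. Every lamin C library lay above the other 6, and control replicate 2 lay apart from the other 2 controls, within the range of the L881 hearts. Pacsin1 rose with lamin C by 2.32 ± 0.36 against control (adjusted p = 0.00023 by edgeR) and by 1.41 ± 0.31 against L881 (adjusted p = 0.00079 by edgeR). It also rose by 0.91 ± 0.38 in the L881 hearts against control (adjusted p = 0.043 by edgeR), but that call did not hold when single libraries were left out. The difference was 0.58 without control replicate 1, 0.63 without control replicate 3, 0.71 without L881 replicate 1 and 0.77 without L881 replicate 2, none of them called, and 1.79 without control replicate 2. With the replicate number as a block it was 0.92 and not called. The call was also lost with the compared groups alone (0.90), without the third control of each batch (0.63) and with limma on either FPKM scale. The adjusted p ranged from 0.00040 to 0.22 over the alternatives. The L881 hearts of batch LA lay 0.33 below their controls, so the batches differed in sign here. The lamin C and lamin A hearts stood apart from each other and from the 4 lower groups, which overlapped.

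The relatives of Pacsin1 were counted in every library. Pacsin2, the widely expressed form, had 5690 to 9249 counts per library and Pacsin3, the form of heart and skeletal muscle, 4274 to 8241. Pacsin2 fell by 0.86 in the L881 hearts of batch LC (SE 0.07), rose by 0.55 ± 0.07 with lamin C and rose by 0.37 ± 0.07 with lamin A, and it stayed below the controls with either lamin (-0.32 ± 0.07 with lamin C, -0.53 ± 0.07 with lamin A). Pacsin3 differed by -0.09 ± 0.05 in the L881 hearts of batch LC (adjusted p = 0.15 by edgeR), by 0.06 ± 0.05 with lamin C (adjusted p = 0.34 by edgeR) and by -0.02 ± 0.05 with lamin A (adjusted p = 0.83 by edgeR). With library totals the first 2 of these differences of Pacsin3 changed sign, to 0.34 and -0.25. Of 17 tested genes of membrane remodelling besides Pacsin1, 5 rose and 7 fell in the L881 hearts of batch LC, 6 rose and 4 fell with lamin C and 5 rose and 4 fell with lamin A against L881. This balance depends on the scaling, since with library totals 10 rose and 4 fell in the first comparison, 4 rose and 9 fell in the second and 2 rose and 9 fell in the third. Of all tested genes 33.3% rose and 29.6% fell in the first, 25.7% and 28.4% in the second and 16.1% and 13.7% in the third. With library totals these shares were 58.3% and 13.5%, 13.1% and 51.5%, and 7.16% and 34.7%. Dynamin Dnm1, a binding partner of Pacsin1, rose by 1.14 ± 0.09, fell by 0.92 with lamin C and fell by 0.43 with lamin A. Bin1, a curvature protein of transverse tubules, rose by 1.12 ± 0.08, fell by 0.89 and fell by 0.38 in the same comparisons.

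Within each batch, Ptp4a1 lay below the L881 hearts with lamin C and above them with lamin A, in the ID that met the rule. The count table gives the symbol to ENSMUSG00000117310 (chr1:30940302-30949770) and to ENSMUSG00000026064 (chr1:30940302-30949309), both protein coding on the minus strand. They share 3923 exonic bases. The first has 222 bases of its own, a first exon at chr1:30949549-30949770, and the second has 1618 of its own in 3 stretches. The RefSeq promoter printed above ends inside that first exon. The first is called the upstream-start ID here and the second the downstream-start ID. The sources used here do not say how reads in the exons held by both were counted. The split of counts between the IDs is therefore uncertain, and so is the level of the gene, also with both IDs summed.

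The upstream-start ID of Ptp4a1 stood at 1.99, 2.86 and 2.47 CPM in the lamin A libraries, at 0.382, 0.131 and 0.505 in the controls of batch LA and at 0.260, 0.762 and 1.53 in the L881 hearts. The L881 libraries spread from within the controls to just below the lamin A libraries. The lamin A hearts were higher by 2.85 ± 0.47 than the controls and by 1.52 ± 0.39 than the L881 hearts. With single libraries left out, the second difference ran from 1.09 without L881 replicate 1 to 2.25 without L881 replicate 3. In batch LC the controls held 0.849, 1.79 and 1.18 CPM, the L881 hearts 2.05, 1.47 and 1.76 and the lamin C hearts 0.666, 0.710 and 0.685. The lamin C hearts were the lowest group of their batch and overlapped neither other group. The upstream-start ID fell with lamin C by 1.36 against L881 (SE 0.42, adjusted p = 0.011 by edgeR). Its difference from control was -0.88 ± 0.45 (adjusted p = 0.21 by edgeR), and that of L881 from control 0.48 ± 0.40 (adjusted p = 0.31 by edgeR). With no filter the difference between lamin C and control was -0.87 and passed the threshold (adjusted p = 0.047 by edgeR, the lowest of a range up to 0.53 over the alternatives). The controls of the batches did not overlap, with means of 1.27 CPM in batch LC and 0.339 in batch LA. Across batches, the lamin A libraries overlapped the L881 hearts of batch LC. The lamin C libraries lay above the controls of batch LA.

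The downstream-start ID of Ptp4a1 did not share this pattern. It stood at 0.433, 0.962 and 0.685 CPM with lamin A, 0.987, 0.784 and 0.757 in the controls of batch LA and 1.04, 1.05 and 0.881 in the L881 hearts of that batch. In batch LC it held 0.588, 0.667 and 0.501 CPM in the controls, 0.975, 0.880 and 1.04 in the L881 hearts and 0.699, 0.573 and 0.953 with lamin C. It rose in the L881 hearts of batch LC by 0.72 ± 0.29 (adjusted p = 0.036 by edgeR), a call lost with DESeq2, with no filter, with the replicate block (0.71), and without control replicate 1 (0.72), control replicate 3 (0.61), L881 replicate 1 (0.71) or L881 replicate 3 (0.66). This call was also lost with limma on either FPKM scale and without the third control of each batch (0.61). The adjusted p ranged from 0.0015 to 0.41 over the alternatives. Its differences were -0.38 ± 0.28 with lamin C (adjusted p = 0.25 by edgeR) and -0.50 ± 0.27 with lamin A against L881. With library totals the first of these was -0.69 and passed the threshold (adjusted p = 0.033 by edgeR, the lowest of a range up to 0.65 over the alternatives).

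With the counts of both IDs summed, a choice made after seeing the data, Ptp4a1 fell with lamin C by 0.93 against L881 (SE 0.25, adjusted p = 0.0034 by edgeR). Its difference from control was then -0.38 ± 0.26 (adjusted p = 0.38 by edgeR), and that of L881 from control 0.56 ± 0.24 (adjusted p = 0.053 by edgeR). The summed lamin A hearts stood at 2.42, 3.82 and 3.16 CPM, higher by 0.77 ± 0.23 than the L881 hearts and by 1.41 ± 0.26 than the controls of batch LA. The direction with each lamin was that of the upstream-start ID, and these differences from L881 and control were smaller, apart from that of L881 from control in batch LC (0.56 as against 0.48).

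**Figure D4:**
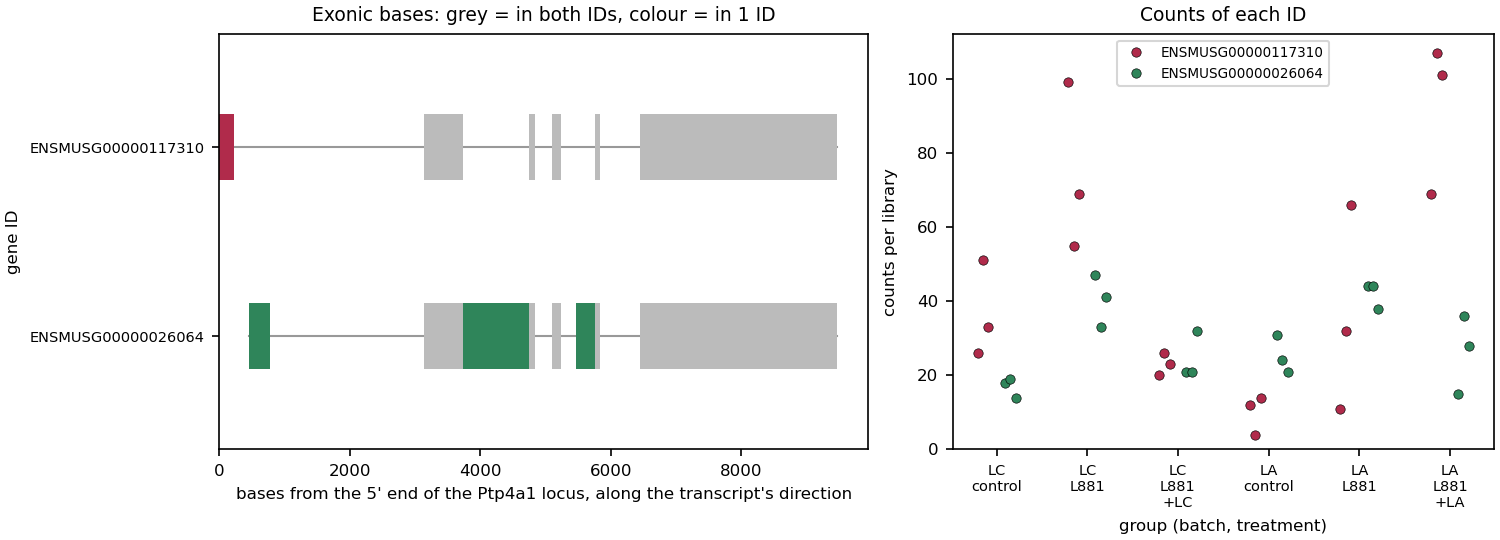
Left, exonic bases of the 2 Ptp4a1 IDs along the locus (bases from the 5′ end), grey where both IDs hold them and coloured where only 1 does; right, counts per library of each ID in the 6 groups (points are libraries, linear axis from 0). ENSMUSG00000117310 has 222 bases of its own and, within its batch, is highest with lamin A and lowest with lamin C. ENSMUSG00000026064 has 1618 of its own and overlaps between the lamins.

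The relatives of Ptp4a1 were counted in every library. Ptp4a2 had 7328 to 12406 counts per library and Ptp4a3, the form best known from muscle and vessels, 8347 to 14466. Ptp4a3 fell by 0.77 in the L881 hearts of batch LC (SE 0.07), rose by 0.70 ± 0.07 with lamin C and rose by 0.26 ± 0.07 with lamin A. Ptp4a2 fell by 0.11 in the L881 hearts of batch LC (SE 0.05, adjusted p = 0.036 by edgeR), and it differed by 0.09 ± 0.05 with lamin C (adjusted p = 0.10 by edgeR) and by 0.02 ± 0.05 with lamin A (adjusted p = 0.80 by edgeR). With library totals these differences of Ptp4a2 were 0.31, -0.22 and -0.18, so its direction depends on the scaling. Of 11 tested PRL phosphatases, CNNM partners and magnesium carriers besides Ptp4a1, 3 rose and 5 fell in the L881 hearts of batch LC, 4 rose and 3 fell with lamin C and 3 rose and 2 fell with lamin A against L881. With library totals the counts were 6 and 2, 2 and 6, and 0 and 6. Shares over all tested genes were 33.3% and 29.6%, 25.7% and 28.4%, and 16.1% and 13.7%. With library totals these shares were 58.3% and 13.5%, 13.1% and 51.5%, and 7.16% and 34.7%. The magnesium exchanger Slc41a1 fell by 0.84 (SE 0.09) and rose by 0.70 ± 0.09 with lamin C.

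AI593442 was the gene with the largest difference from L881 among the 8 rows with lamin A, and with lamin C it overlapped the controls. AI593442 (chr9:52673042-52679780, minus strand) stood at 11.5, 9.41 and 11.5 CPM in the lamin A libraries, at 2.67, 2.78 and 3.61 in the controls of batch LA and at 0.920, 1.31 and 1.34 in the L881 hearts. The 3 groups did not overlap. The lamin A hearts were higher by 1.84 ± 0.18 than the controls and by 3.18 ± 0.19 than the L881 hearts, a 9.05-fold difference, and the L881 hearts lay 1.33 below the controls.

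In batch LC the controls held 2.74, 3.16 and 2.40 CPM of AI593442, the L881 hearts 1.14, 1.12 and 0.637 and the lamin C hearts 3.10, 2.78 and 3.52. The lamin C hearts overlapped the controls, and both lay above the L881 hearts. AI593442 fell in the L881 hearts by 1.51 (SE 0.22, adjusted p = 5.1e-06 by edgeR) and rose with lamin C by 1.68 ± 0.21 (adjusted p = 1.3e-06 by edgeR). The difference between lamin C and control was 0.18 ± 0.19 (adjusted p = 0.60 by edgeR). In the order of means the L881 hearts of both batches overlapped each other at the bottom, the controls of both batches and the lamin C hearts overlapped in the middle, and the lamin A hearts stood apart at the top.

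Set side by side, the differences from each batch's own controls were 0.18 with lamin C and 1.84 with lamin A for AI593442, 0.18 and 0.89 for Fut2, 0.79 and 1.95 for Nog, and -0.88 and 2.85 for the upstream-start ID of Ptp4a1. For the downstream-start ID of Ptp4a1 they were 0.34 and -0.28, and for both IDs summed -0.38 and 1.41. For Pacsin1 they were 2.32 and 2.11, and for Shisa6 1.09 and 1.29. The lamin A values of the rows that met the rule are those that chose the genes, so the gap between the lamins was not tested. Total Lmna stood higher with lamin C than with lamin A, at means of 1252 and 531.3 CPM.

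Across the 18 libraries the log2 CPM of the 8 rows were related to one another with a median Pearson r of 0.45, from -0.54 to 0.85, as a description of libraries that share groups and batches. AI593442 and Fut2 gave the highest value and AI593442 and the downstream-start ID of Ptp4a1 the lowest. The rows that met the rule were chosen as high in the same lamin A libraries. The choice itself therefore raises r between them, and r with other genes that are high there. The protein-coding genes most like each row, among those with a mean of at least 1 CPM, were then listed by the same measure. Among the genes most like AI593442 were Bysl (r = 0.92) and Gpr146 (r = 0.91).

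Pacsin1 was most like Nkain1 (r = 0.87), Epha2 (0.85) and Maz (0.85), and Fut2 most like Camta1 (0.89), Dhrs3 (0.88) and Dpp9 (0.87). Nog was most like Smyd5 (0.88), Umps (0.87) and Mogs (0.86), and Colec10 most like Jak3 (0.87), Sufu (0.83) and Myo5b (0.83). Shisa6 was most like Nle1 (0.82), Pycard (0.79) and AI593442 itself (0.78). The upstream-start ID of Ptp4a1 was most like Eif4a3 (0.79), Mettl1 (0.78) and Alyref (0.77), and the downstream-start ID most like Gsta1 (0.79), Fez1 (0.79) and Tmem128 (0.79). With Spearman's rho in place of r, 10 of the 24 genes so listed kept a place among the 3 most alike.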

How the data were processed

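Directional libraries of poly(A) RNA were made from mouse heart apex per the labels' protocols, 18 in 6 groups of 3. The submitters' processing notes name build mm10 and, without saying what each did, DESeq2 1.20.0, StringTie 1.3.3b, featureCounts 1.5.0-p3 and HISAT2 2.0.5. Raw counts per gene were deposited by the authors, with gene coordinates. FPKM values were deposited by the authors too, and the values themselves show a count per kilobase relative to an adjusted library size (0.879 to 1.226 times the library total).

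Genes kept by filterByExpr (minimum count 10, 17876 of 54532) were tested with edgeR 4.0.16 in R 4.3.3: TMM factors, quasi-likelihood F test, 1 fit of 6 groups with 12 residual degrees of freedom, Benjamini-Hochberg adjustment, called at 0.05. Standard errors came from the F statistic. Replicates differed beyond counting noise (chi-square per degree of freedom 5.98 to 39.3). The code was tested on simulated data.

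The genes and lists were chosen with earlier results of these data known. Besides the 7 genes, named genes were their family members, up to 4 genes per pathway list by smallest p in batch LC, and the 3 protein-coding genes of highest r, 1 of which is not reported here. The 10 pathway lists held 98 tested genes besides the 7; 17 lists of cell type markers were summed. Alternatives were DESeq2 1.42.0, RLE factors, scaling by library totals, no filter, a fit without mitochondrially encoded genes, only the groups compared, a replicate block, leaving out each library or the third controls, limma 3.58.1 on log2(FPKM + 1) and log2(FPKM + 0.1), and, for likeness, Spearman's rho. Promoter sequences came from RefSeq.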

Additional observations from a re-analysis of the deposited data

Results flagged for a closer look

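Ptp4a1 under the ID ENSMUSG00000117310 stood out by its order within each batch. Every lamin C library lay below the control and L881 hearts of its batch, and every lamin A library lay above those of its own. Between batches this did not hold throughout, and the controls differed, with means of 1.27 CPM in batch LC and 0.339 in batch LA. Against the L881 hearts of its batch this ID differed by -1.36 with lamin C (adjusted p = 0.011 by edgeR) and by 1.52 with lamin A on the log2 scale. Against the controls it differed by -0.88 with lamin C (adjusted p = 0.21 by edgeR) and by 2.85 with lamin A. The difference between the lamins was not tested, and the gene was chosen for being high with lamin A. The side of lamin C did not enter the rule, although earlier results of these data were known when the gene was chosen. With both IDs of Ptp4a1 summed, the differences from L881 were -0.93 with lamin C and 0.77 with lamin A. From control the summed differences were -0.38 with lamin C and 1.41 with lamin A. The summed lamin C libraries overlapped the controls, so the order with lamin C did not hold in full.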

How the results depend on the processing

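Levels near 1 CPM limit these genes, and with 3 libraries a group single libraries can decide a call. Of the rows other than Colec10, 3 were called higher and 2 lower in the L881 hearts against the controls of batch LC, beside 33.3% and 29.6% of all tested genes. The count higher was 1 with the replicate block, 1 without the third control of each batch and 1 with limma on either FPKM scale, where the count lower was also 1, and leaving out single libraries gave 1 to 3. Against L881, 4 rows were called higher and 1 lower with lamin C, and the counts were 3 lower with scaling by library totals and 2 higher with limma on log2(FPKM + 0.1). Against control, 1 row was called higher and 0 lower with lamin C. The count higher was 2 with library totals, 2 without the third control of each batch and 1 to 2 with single libraries left out. With no filter (with 1 lower) and with DESeq2, Pacsin1 and Shisa6 were called higher, with Colec10 left aside. Directions turned for Shisa6 in the L881 hearts with library totals (0.085) and for Fut2 with lamin C against control without control replicate 1 (-0.078) or without lamin C replicate 2 (-0.027), in a range of -0.078 to 0.46 with single libraries left out. The cause was not tested.

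Of the 98 pathway genes, 47 were higher and 18 lower in the L881 hearts of batch LC. The shares of all tested genes were 33.3% and 29.6%. With library totals 72 were higher and 7 lower, beside 58.3% and 13.5% of all tested genes. That scaling moved the median of all genes from 0.05 to 0.47. With lamin C against L881, 17 were higher and 47 lower, beside 25.7% and 28.4% of all tested genes. With library totals 7 were higher and 68 lower, beside 13.1% and 51.5%. With lamin C against control, 18 were higher and 4 lower, beside 8.87% and 6.18% of all tested genes. With library totals 25 were higher and 1 lower, beside 16.1% and 1.64%. With the compared groups alone 15 were higher and 1 lower. Leaving out single libraries gave 11 to 18 higher, the low without lamin C replicate 1. Over all genes 2690 were called with lamin C against control. With single libraries left out this was 1507 to 2680, with 1507 without lamin C replicate 1 and 1752 without lamin C replicate 3. Likeness by Spearman's rho kept 10 of 24 genes.

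Replicate numbers showed no clear pairing of the samples. Libraries of the same number had correlations of -0.08 to 0.12 in batch LC and -0.03 to 0.04 in batch LA. Those of different numbers ran from -0.13 to 0.12 and from -0.03 to 0.04. With 3 libraries a group, these values cannot exclude pairing. The replicate block left 11065, 9391 and 2464 genes called in the 3 contrasts of batch LC, as against 11247, 9662 and 2690. Colec10 had no value in the fits of the compared groups of batch LC, where it did not pass the filter.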
